A study of Mus musculus with 6 samples.

Results

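Keratins are the intermediate filament proteins of epithelial cells, and the data described here are the transcripts of 10 keratin genes in primary cultures of mouse renal tubule epithelial cells (RTECs): Krt5, Krt7, Krt8, Krt14, Krt17, Krt18, Krt19, Krt20, Krt23 and Krt80. The 10 members were set by name, and all of them were found among the 46517 genes in the count files, in which 54 genes carry a keratin symbol. RNA sequencing was done on 3 control cultures (CTL) and 3 cultures treated with transforming growth factor β1 (TGF-β1), a cytokine used to drive fibrotic and dedifferentiation programmes in tubule cells. All cells came from wild-type kidneys of the FvB strain, at 4 to 6 weeks of age per the labels (the study's methods give a slightly younger range), with no transgene or deletion in either group. Both groups were grown in medium with 10% serum and 20 ng/ml epidermal growth factor to 70% confluence and then kept for 24 h without serum, after which the treated cultures received 50 ng/ml TGF-β1 for 24 h. The cells were obtained by collagenase digestion and filtering without a sort, so a culture can hold cells of several tubule segments and other kidney cells. No source states whether cultures with different replicate numbers came from different animals. By the Y-linked transcripts given below, replicate 2 held cells of an animal not in replicates 1 and 3. The p-values below measure the spread between these cultures only, which between replicates 1 and 3 may be technical.

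A keratin filament forms only when a type I (acidic) chain pairs with a type II (basic) chain, and an unpaired chain is degraded. Krt8 (type II) and Krt18 (type I) form the primary pair of simple epithelia such as the renal tubule, with Krt7 and Krt19 as the additional chains of ductal epithelia, Krt20 as a late simple-epithelial chain, and Krt5 with Krt14 as the pair of basal cells in stratified epithelia. Krt17 is known as a keratin of stressed and wounded epithelia, and Krt8, Krt18, Krt7, Krt19 and Krt20 are known to appear or rise in injured kidney tubules. The filaments are anchored at desmosomes through desmoplakin, plakoglobin and the plakophilins, and are cross-linked to the rest of the cytoskeleton by plectin.

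Of the 10 members, 6 encode type I and 4 encode type II chains. Mouse keratin genes sit in a pair of clusters, and 5 members lay on chromosome 11 within 832.6 kb and 5 on chromosome 15 within 684.6 kb (GRCm38, GENCODE M21). Krt18 is the exception among type I genes, because it sits in the chromosome 15 cluster: Krt8 occupied chr15:101996698-102004482 on the minus strand and Krt18 chr15:102028180-102032027 on the plus strand, 23697 bp apart and pointing away from each other. Krt7 occupied chr15:101411043-101430313 and Krt19 chr11:100140810-100148665.

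Promoter sequence is shown for Krt8 and Krt18, the neighbouring genes that led the keratin transcripts per length and moved together across the cultures. It is also shown for Krt20, a member at a far lower level that varied less. RefSeq windows (GRCm38.p6) from 250 bases before the start were available for 7 of the 10 members (not for Krt17, Krt19 and Krt80), and the stretches printed are the bases before the start that lie in no annotated exon of the gene, 5′ to 3′ on the gene's strand. They span chr15:102004483-102004592 on the minus strand (Krt8), chr15:102027966-102028179 on the plus strand (Krt18) and chr11:99438154-99438403 on the minus strand (Krt20). Capitals mark a match to TATAAA (the TATA box) or to CAGACA (a SMAD-binding element) on either strand.
Krt8: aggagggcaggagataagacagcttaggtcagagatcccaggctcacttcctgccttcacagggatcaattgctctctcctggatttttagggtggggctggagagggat
Krt18: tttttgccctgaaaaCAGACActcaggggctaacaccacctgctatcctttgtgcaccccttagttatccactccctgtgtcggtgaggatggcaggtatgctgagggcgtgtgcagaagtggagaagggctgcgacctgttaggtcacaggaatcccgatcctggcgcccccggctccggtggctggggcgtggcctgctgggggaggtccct
Krt20: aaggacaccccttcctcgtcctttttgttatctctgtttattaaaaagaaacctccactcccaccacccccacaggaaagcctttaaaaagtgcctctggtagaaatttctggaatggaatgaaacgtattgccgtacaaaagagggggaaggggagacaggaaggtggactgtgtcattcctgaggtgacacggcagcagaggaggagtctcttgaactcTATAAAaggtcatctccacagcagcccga

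Over the full windows, TATAAA was found on either strand in 2 of the 7 members, Krt20 and Krt8, and in 13.6% of 32851 promoter windows. In Krt20 it began at position -29 from the start, and in Krt8 it lay at the start itself, in bases that belong to an annotated exon and are not printed. CAGACA was found in 4 of the 7 members (Krt7, Krt14, Krt18 and Krt20) and in 21.0% of all windows. In Krt20 this match began at position 2, after the start, and is not printed. GGGCGG (the GC box) was found in 1 member, Krt7, and in 35.7% of all windows, while TGANTCA (the AP-1 motif) was found in 0 members and in 7.81% of all windows. Matches to different motifs did not overlap in any of the 7 windows, while in Krt8 the matches on the opposite strands shared bases. A match describes these windows only.

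Each culture gave between 28313080 and 34183497 reads on genes, at which depth 3 reads equal 0.0878 to 0.106 counts-per-million (CPM). The cultures labelled replicate 2 stood apart from the other 4 in both groups, and cultures sharing a replicate number deviated together across treatments. The 4 Y-linked genes Ddx3y, Eif2s3y, Kdm5d and Uty summed to 151 CPM in CTL 2 and 142 CPM in TGF-β1 2, against 0.061 to 0.172 CPM in the other 4 cultures, although the study describes male animals. Replicate 2 thus held male cells, while the other 4 cultures held next to none. Sex and any other difference of replicate 2 from the other cultures cannot be told apart. Values are therefore given by replicate number, member tests and list counts are given without and with the replicate number as a block, and the result for Krt19 is repeated without replicate 2.

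Krt8 and Krt18 were the most abundant keratin transcripts of the RTECs by a wide margin, and the stratified pair Krt5 and Krt14 was close to undetected. Per length of transcript, in transcripts-per-million (TPM), Krt8 averaged 1115 ± 715 in CTL and 1128 ± 505 in TGF-β1 cultures (SD, n = 3), and Krt18 averaged 1025 ± 588 and 1079 ± 453. The order of these neighbours did not hold in every culture, since Krt8 was above Krt18 in replicates 1 and 3 and below it in replicate 2 of both groups. Together they made up between 75.2% and 82.8% of the TPM of the 10 members.

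Krt19 and Krt7 came next. Krt19 averaged 277 ± 148 TPM in CTL and 189 ± 92.4 TPM in TGF-β1 cultures, and Krt7 averaged 194 ± 93.8 and 199 ± 86.3 TPM. The order of their CTL means rested on the transcript length used. With the longest annotated transcript in place of all exons, Krt7 averaged 257 TPM in CTL and 263 TPM in TGF-β1 cultures against 251 and 170 TPM for Krt19. In the TGF-β1 cultures Krt7 had the higher mean with either length, although with all exons it lay below Krt19 in TGF-β1 3. Krt20 averaged 45.5 TPM in CTL (29.2 to 61.9) and 43.5 TPM in TGF-β1 cultures (27.2 to 61.6). Krt17 averaged 30.3 TPM (8.38 to 50.1) and 34.6 TPM (15.1 to 50.5), so the ranges of these neighbours overlapped, but Krt20 was above Krt17 in each of the 6 cultures. Krt80, a type II chain of skin and other lining epithelia, averaged 8.78 ± 2.60 and 7.53 ± 3.47 TPM from 186 to 529 reads per culture.

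**Figure D1:**
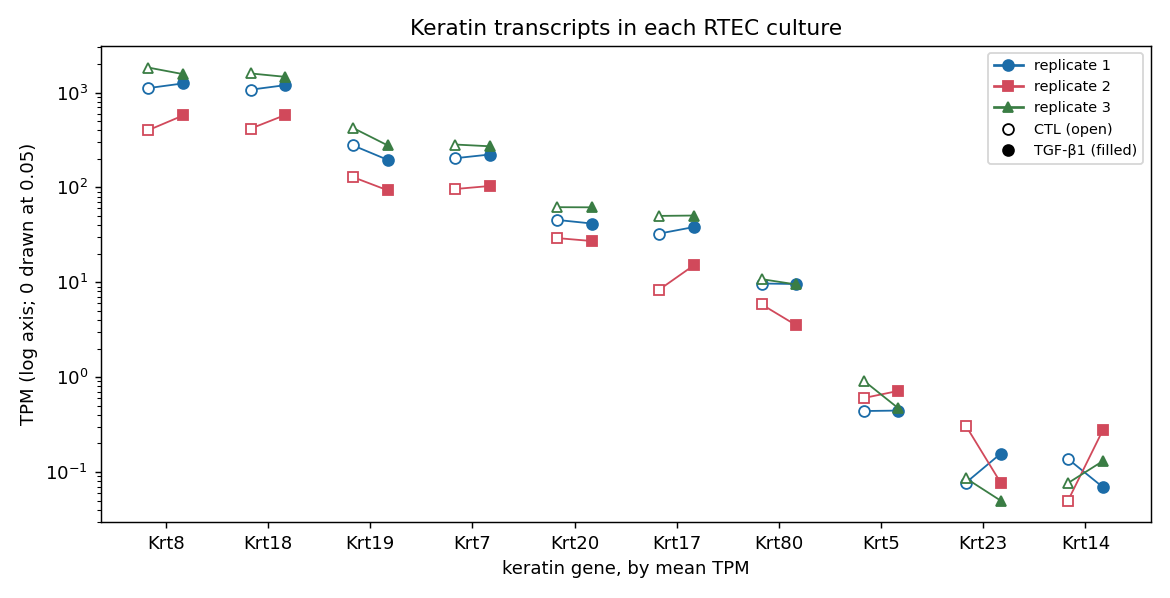
TPM (log axis) of the 10 keratins in each of the 6 RTEC cultures, with open symbols for CTL, filled symbols for TGF-β1, and a line joining the cultures that share a replicate number (1, 2 or 3). Krt8 and Krt18 lie at the top, the squares of replicate 2 lie lowest for every gene from Krt8 to Krt80, and the 3 lines of Krt19 all slope down, as on this scale do those of Krt20 and Krt80.

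The basal chain Krt5 had between 8 and 15 reads per culture, a level of 0.439 to 0.919 TPM. Its partner Krt14 had 2, 0 and 1 reads in CTL cultures 1 to 3 and 1, 4 and 2 reads in the TGF-β1 cultures, and Krt23, a type I chain of epithelial tissues, had 1, 4 and 1 reads and 2, 1 and 0 reads. Both sat at or around the limit of 3 reads that a count of 0 allows, so no ratio between the groups was detectable at this depth. These 2 genes were the members that did not pass the filter on low counts, which left 8 members tested. The 6 urothelial markers listed as a check on another keratin-rich epithelium of the kidney summed to 0.425 to 0.930 CPM, with Upk1b and Upk3a at 3 reads or fewer in every culture.

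The 10 members held between 98.9% and 99.7% of all reads on keratin genes. Among the other 44 keratin genes, 17 had 0 reads in all 6 cultures, 25 had at least 1 read but no more than 14 in any culture and were not tested, and 2 were tested. Krt10, the suprabasal type I chain of epidermis, was the other keratin above 1 CPM, with 147, 157 and 134 reads in CTL cultures 1 to 3 and 135, 134 and 189 reads in the TGF-β1 cultures. It did not differ beyond the spread between cultures (log2 fold change 0.05, adjusted p = 0.86, edgeR). The remaining tested gene, Krt42, had 1 to 15 reads per culture (log2 fold change -0.52, adjusted p = 0.716, edgeR), and 0 of these 2 genes were called with or without the block.

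The question put to these data here was whether treatment with TGF-β1 changed the keratin transcripts of the cultures. Without regard to the replicate numbers it gave no call: 0 of the 8 tested members passed an adjusted p of 0.05 in edgeR's quasi-likelihood test in either direction, and 0 had an unadjusted p under 0.05, while 11.7% of all 15862 genes tested were called, 5.00% higher (793 genes) and 6.69% lower (1061 genes). Scaled by library size only, the split of all genes was 508 higher and 1467 lower. With the replicate number as a block, 1 of the 8 was called, Krt19, which was lower, against 34.2% of all genes called in either direction, 15.1% higher and 19.1% lower. The median log2 fold change over the 8 members was 0.02 without the block and 0.05 with it, beside -0.0028 and -0.0025 over all genes tested.

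Krt19, a type I keratin of ductal cells that lacks most of the tail domain, fell within every pair of same-numbered cultures. Its level was 130, 60.2 and 201 CPM in CTL cultures 1 to 3 and 95.3, 46.7 and 133 CPM in the TGF-β1 cultures. The groups overlapped, because CTL 2 lay below TGF-β1 1 and TGF-β1 3, and CTL 1 lay slightly below TGF-β1 3. Each treated culture nevertheless lay below the control with its number, by 0.45, 0.36 and 0.60 on the log2 scale. In edgeR without the block the log2 fold change was -0.51 (SE 0.53, 95% interval -1.80 to 0.78, adjusted p = 0.584). In edgeR with the block it was -0.48 (SE 0.053, 95% interval -0.60 to -0.35, adjusted p = 0.00039), so that the transcript fell by 28.1%.

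The direction of Krt19 was the same in all settings tried, but the call depended on the pairing. It passed in 6 of 6 fits with the block, including those without replicate 1, 2 or 3, with log2 fold changes from -0.55 to -0.41 and adjusted p from 1.54e-06 to 0.00766 (edgeR and limma). It passed in 0 of 16 fits without the block, with log2 fold changes from -0.88 to -0.05 and adjusted p from 0.237 to 0.965 (edgeR, DESeq2 and limma). Without replicate 2 the log2 fold change was -0.53 in edgeR without the block (adjusted p = 0.237) and -0.52 with it (adjusted p = 7.44e-05).

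Krt8, the main type II chain, showed no shared direction. It was measured at 551, 198 and 918 CPM in CTL cultures 1 to 3 and at 642, 303 and 791 CPM in the TGF-β1 cultures. The treated culture was above its control in replicates 1 and 2 and below it in replicate 3, and the groups overlapped over most of their range. The log2 fold change in edgeR was 0.06 (SE 0.59, 95% interval -1.39 to 1.51, adjusted p = 0.964) without the block and 0.20 (SE 0.15, 95% interval -0.17 to 0.57, adjusted p = 0.354) with it.

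Krt18, the type I partner of Krt8, followed the same order of cultures. It stood at 389, 151 and 584 CPM in CTL and 452, 225 and 544 CPM in TGF-β1 cultures, again higher after treatment in replicates 1 and 2 and lower in replicate 3. Its log2 fold change in edgeR was 0.12 (SE 0.54, 95% interval -1.19 to 1.43, adjusted p = 0.912) without the block and 0.23 (SE 0.12, 95% interval -0.08 to 0.53, adjusted p = 0.22) with it.

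Krt7, the type II chain of ducts, gave 362, 171 and 511 CPM in CTL and 411, 197 and 495 CPM in TGF-β1 cultures. The log2 differences within pairs were 0.19, 0.20 and -0.05, and the log2 fold change in edgeR was 0.08 (SE 0.48, 95% interval -1.09 to 1.25, adjusted p = 0.935) without the block and 0.11 (SE 0.059, 95% interval -0.02 to 0.25, adjusted p = 0.179) with it. As a ratio of TGF-β1 to CTL, the interval ran from 0.469 to 2.39 without the block and from 0.984 to 1.19 with it.

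Krt17, the stress keratin, was higher in the treated culture of all 3 pairs but did not pass the test. It had 12.8, 3.28 and 19.9 CPM in CTL and 15.6, 6.35 and 20.3 CPM in TGF-β1 cultures, so most of the difference came from replicate 2, where the treated culture was 0.94 higher on the log2 scale against 0.29 and 0.03 in the other pairs. The log2 fold change was 0.24 (SE 0.69, adjusted p = 0.857) without the block and 0.33 (SE 0.15, 95% interval -0.04 to 0.70, adjusted p = 0.146) with it, both in edgeR. In TMM-normalised CPM, 1 member was higher (Krt17) and 1 lower (Krt19) in all 3 pairs, where 30.4% and 32.6% of all genes were, and 0 of the 8 members had groups that did not overlap, against 35.1% of all genes.

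Krt20 was nearly level within pairs, with 14.2 to 30.5 CPM in CTL and 14.2 to 30.7 CPM in TGF-β1 cultures. Its log2 fold change in edgeR was -0.02 both without the block (95% interval -0.91 to 0.88, adjusted p = 0.985) and with it (95% interval -0.16 to 0.12, adjusted p = 0.822). Krt80 ranged from 9.44 to 17.7 CPM in CTL and from 6.08 to 16.1 CPM in TGF-β1 cultures, with a log2 fold change in edgeR of -0.17 (95% interval -1.18 to 0.84, adjusted p = 0.825) without the block and -0.22 (95% interval -0.50 to 0.06, adjusted p = 0.199) with it. Krt5, at 0.244 to 0.517 CPM, had a log2 fold change in edgeR of -0.20 without the block (95% interval -1.13 to 0.74, adjusted p = 0.787) and with it (95% interval -1.05 to 0.66, adjusted p = 0.721), intervals too wide to bound its change closely.

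The 4 keratins Krt7, Krt8, Krt17 and Krt18 depended on replicate 3 in the paired fit. When both cultures of replicate 3 were left out, these 4 passed as higher in edgeR with the block, with log2 fold changes of 0.20 for Krt7 (adjusted p = 0.0145), 0.41 for Krt8 (adjusted p = 0.00114), 0.53 for Krt17 (adjusted p = 0.00454) and 0.39 for Krt18 (adjusted p = 0.000549). In that fit, 2581 of all 16023 genes tested passed as higher. When replicate 2 was left out instead, the values were 0.07, 0.0032, 0.15 and 0.06 in the same order and none of the 4 passed, while 2288 of 15955 genes passed as higher. Over the 6 paired fits the adjusted p ranged up to 0.635 for Krt7, 0.984 for Krt8, 0.268 for Krt17 and 0.606 for Krt18.

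**Figure D2:**
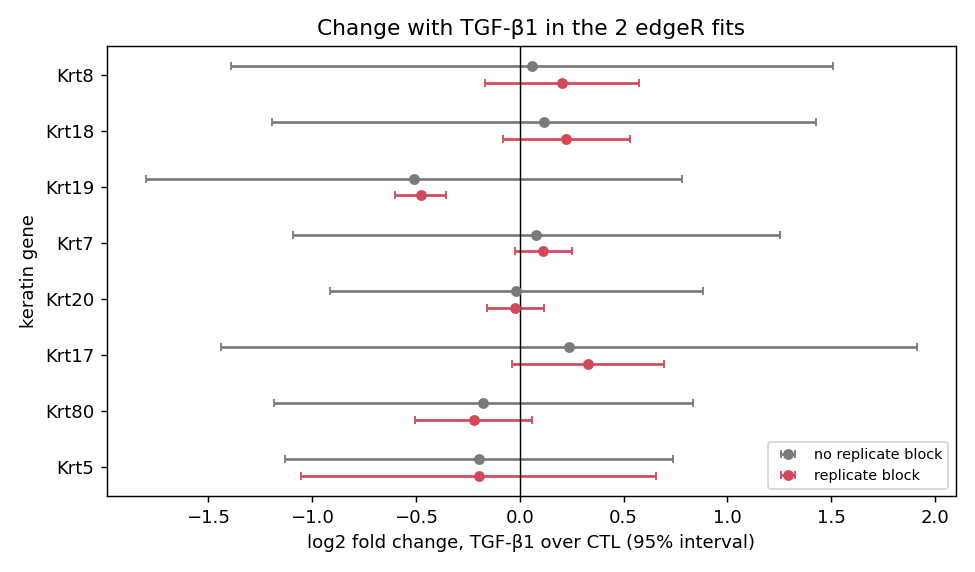
Log2 fold change of TGF-β1 over CTL with its 95% interval for the 8 tested keratins, from edgeR without the replicate block (grey) and with it (red). The blocked intervals are shorter for the abundant members, and Krt19, at -0.48, is the member whose blocked interval excludes 0.

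The difference between replicate numbers was larger than that between treatments for most members. The pooled SD within groups on the log2 scale had a median of 0.79 over the 8 tested members against 0.14 over all 15862 genes. In 7 of the 8, all but Krt5, the 2 cultures of replicate 2 were both lower than the other 4 cultures, which held for 12.3% of all genes. The geometric mean of replicates 1 and 3 over replicate 2 was 3.58-fold in CTL and 2.35-fold in TGF-β1 cultures for Krt8, 3.16-fold and 2.20-fold for Krt18, and 4.79-fold and 2.78-fold for Krt17. It was 2.51-fold and 2.29-fold for Krt7, 2.69-fold and 2.41-fold for Krt19, 1.82-fold and 1.79-fold for Krt20, and 1.76-fold and 2.60-fold for Krt80.

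Some other genes of epithelial and mesenchymal cells differed in the same cultures. Epcam and Cdh1 (E-cadherin), both epithelial adhesion proteins, were 3.54-fold and 3.42-fold higher in CTL replicates 1 and 3 than in CTL 2, and 3.88-fold and 3.23-fold higher in the TGF-β1 cultures. The desmosomal plakin Dsp was 2.41-fold and 2.72-fold higher in the same way. Vim and Col1a1, genes of mesenchymal cells, went the other way, at 0.550 and 0.358 of their replicate 2 level in CTL and 0.494 and 0.374 in the TGF-β1 cultures. The 7 fibroblast markers summed to 2570 CPM in CTL 2 and 3360 CPM in TGF-β1 2, against 1033 to 1437 CPM in the other 4 cultures, and the 9 epithelial surface markers summed to 790 and 605 CPM in replicate 2 against 1281 to 2286 CPM elsewhere. The 4 mesothelial markers were also highest in replicate 2. They summed to 133 CPM in CTL 2 against 63.5 and 74.8 CPM in the other controls, and to 86.4 CPM in TGF-β1 2 against 44.3 and 45.5 CPM. Most of this was Wt1, at 106 CPM in CTL 2 and 78.5 CPM in TGF-β1 2, while Msln was not highest in replicate 2 of either group. Not every marker followed. The surface marker Cdh16 had 302, 251 and 232 CPM in CTL and 101, 69.7 and 106 CPM in TGF-β1 cultures 1 to 3. The 7 proximal tubule markers summed to 93.6, 88.1 and 77.6 CPM in CTL and 49.6, 35.7 and 44.9 CPM in TGF-β1 cultures. The fibroblast marker Pdgfra, at 0.881 CPM in CTL 2 and 0.654 CPM in TGF-β1 2, was not higher in replicate 2. In bulk RNA, fewer epithelial cells and less keratin RNA per cell cannot be told apart, and the part of these differences in the keratin levels was not tested.

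**Figure D3:**
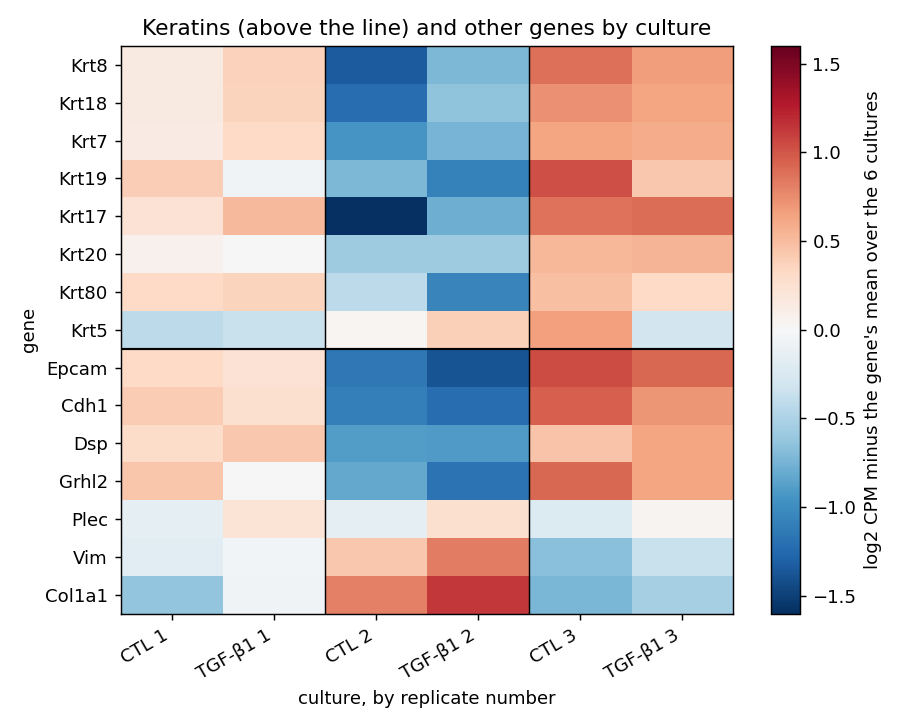
Centred log2 CPM (each gene minus its mean over the 6 cultures) for the 8 tested keratins above the line and 7 other genes below it, with cultures ordered by replicate number. The 2 columns of replicate 2 are blue for 7 keratins and for Epcam, Cdh1, Dsp and Grhl2, and red for Vim and Col1a1, while Plec shows no such difference between replicate numbers.

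The genes whose pattern over the 6 cultures lay closest to that of Krt8 were Sfn, Krt18 and Macc1. The mean absolute difference of centred log2 CPM was 0.0348 for Sfn (stratifin, an epithelial 14-3-3 protein), 0.0621 for Krt18 and 0.0818 for Macc1, out of 10910 genes with a mean of at least 5 CPM. Krt7 ranked 6 and Krt17 ranked 12 in this order, whereas Krt20, Krt19 and Krt80 ranked 71, 102 and 131. The measure is a description over 6 libraries, which share replicate numbers.

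Summed over the 10 members, keratin transcripts came to 2754, 1086 and 4252 TPM in CTL cultures 1 to 3 and 2951, 1397 and 3695 TPM in the TGF-β1 cultures. The sum was lowest in replicate 2 and highest in replicate 3 of each group, and the groups overlapped throughout. The means of 2697 ± 1583 and 2681 ± 1173 TPM (SD, n = 3) differed by -16.2 TPM (exact two-sided permutation p = 1.0, where 0.1 is the smallest p that 3 against 3 cultures can give). The sign of this difference depended on the scale, since it was 17.1 in TMM-normalised CPM per kb, and on single cultures, since it was 626 TPM without TGF-β1 2 and -822 TPM without CTL 2.

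The chains of the main pair kept a narrow ratio while their levels varied. A pattern close to that of Krt8 was not particular to Krt18, because Sfn lay closer still. The mean absolute difference of centred log2 CPM from Krt8 was 0.0348 for Sfn and 0.0621 for Krt18. The log2 ratio of Krt8 to Krt18 per kb was 0.07 ± 0.13 in CTL and 0.05 ± 0.06 in TGF-β1 cultures (SD, n = 3, exact permutation p = 1.0), and over all 6 cultures the ratio spanned 1.19-fold, while the summed level spanned 3.91-fold. All type II members against all type I members gave -0.10 ± 0.10 and -0.02 ± 0.04 (exact permutation p = 0.3), and Krt7 against Krt8 gave -2.40 ± 0.32 and -2.50 ± 0.03 (exact permutation p = 0.7). None of these 3 ratios differed beyond the spread between cultures, in a design that cannot go under 0.1.

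The ratio of Krt19 to Krt18, 2 type I chains that can pair with Krt8, was examined after Krt19 had been seen to fall. Its log2 value was -1.95, -1.69 and -1.90 in CTL cultures 1 to 3 and -2.61, -2.64 and -2.40 in the TGF-β1 cultures. Here the groups did not overlap, and replicate 2 had the highest value in CTL and the lowest in TGF-β1 cultures. The means of -1.85 ± 0.14 and -2.55 ± 0.13 (SD, n = 3) differed by -0.70 (exact permutation p = 0.1, the smallest possible), with differences within pairs of -0.67, -0.94 and -0.49. This difference is larger than the fall of Krt19 alone, because it also holds the change of Krt18. In edgeR with the block the log2 fold changes were -0.48 for Krt19 and 0.23 for Krt18, which was not called. Within replicate 2 the log2 differences were -0.36 for Krt19 and 0.58 for Krt18.

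**Figure D4:**
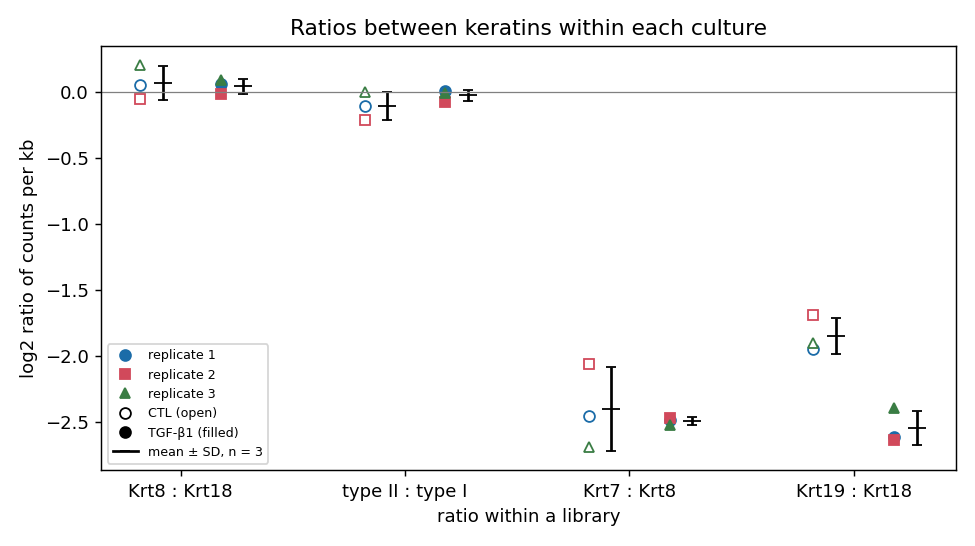
Log2 ratios of read counts per kb between keratins within each culture, with open symbols for CTL, filled symbols for TGF-β1 and bars for the mean ± SD of 3 cultures. The ratio of Krt8 to Krt18 stays near 0 in all 6 cultures, and the ratio of Krt19 to Krt18 is lower in all 3 TGF-β1 cultures (-2.64 to -2.40) than in all 3 CTL cultures (-1.95 to -1.69).

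Among the proteins that anchor keratin filaments, 3 of 11 tested genes rose and 0 fell in edgeR without the block (5.00% and 6.69% of all genes), and 4 rose and 3 fell with it (15.1% and 19.1%). Plakoglobin (Jup) went from 389, 316 and 458 CPM in CTL to 638, 527 and 699 CPM in TGF-β1 cultures, with no overlap and a log2 fold change of 0.68 (SE 0.16, adjusted p = 0.0492, edgeR). Plakophilin 1 (Pkp1) went from 14.9, 17.2 and 13.7 to 26.8, 27.9 and 27.8 CPM, a log2 fold change of 0.85 (SE 0.094, adjusted p = 0.0067, edgeR). Plectin (Plec), which links keratin to actin and to hemidesmosomes, went from 589, 596 and 563 to 764, 786 and 680 CPM, a log2 fold change of 0.35 (SE 0.073, adjusted p = 0.0325, edgeR). All 3 were higher in each treated culture than in each control, including replicate 2. Groups that did not overlap, in either direction, were found for 35.1% of all genes.

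With the block, Pkp2 also rose (log2 fold change 0.43), while Ppl (periplakin, -0.90), Pkp3 (-0.33) and Pkp4 (-0.33) fell. Dsp, the desmosomal plakin that binds the keratin filament, was not called in either fit, at 0.13 (adjusted p = 0.891) and 0.10 (adjusted p = 0.146, edgeR). All 3 of Jup, Pkp1 and Plec passed in each of the 6 fits with the block, where the highest adjusted p was 0.0415, for Plec, while Dsp passed in the blocked fit without replicate 2 (adjusted p = 0.0175). Without the block, leaving out both cultures of replicate 1 ended all 3 calls (adjusted p = 0.43, 0.238 and 0.409 for Jup, Pkp1 and Plec, edgeR), as did leaving out replicate 3 (0.0993, 0.0543 and 0.085). Of the single cultures, Jup and Plec both missed the threshold without CTL 1 (0.172 and 0.137), CTL 2 (0.081 and 0.0683), TGF-β1 1 (0.151 and 0.124) or TGF-β1 2 (0.0537 and 0.0671), Jup without TGF-β1 3 (0.123) and Plec without CTL 3 (0.0816). The unblocked call of Jup was also lost to other processing choices, at an adjusted p of 0.0709 with library size only, 0.0842 with no filter beyond 1 count and 0.0519 with at least 10 counts in every culture (edgeR) and 0.052 in limma-voom, so that it held in 5 of 16 unblocked fits. Eppk1 was not analysed here.

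Of the other intermediate filaments, 11 of 16 were tested, and 1 fell and 0 rose in edgeR without the block (6.69% and 5.00% of all genes). Desmin (Des), the filament of muscle and of some mesenchymal kidney cells, went from 140, 126 and 104 CPM in CTL to 61.4, 58.8 and 44.8 CPM in TGF-β1 cultures, a log2 fold change of -1.17 (SE 0.16, adjusted p = 0.0113, edgeR). Its adjusted p in edgeR without the block was 0.0556 without CTL 1 and 0.238 without both cultures of replicate 1, and it passed in all 6 fits with the block. With the block, 3 rose and 3 fell (15.1% and 19.1% of all genes): Vim (vimentin) by 0.28, Nes (nestin) by 0.83 and Sync by 0.55 upward, and Des, Synm and Lmnb1 downward. Vim, at 1421, 2183 and 1014 CPM in CTL and 1568, 2853 and 1268 CPM in TGF-β1 cultures, overlapped between groups and was called with the block and not without it (adjusted p = 0.669 without it and 0.00972 with it, edgeR, with 0.00511 to 0.0478 over the 6 blocked fits). Lmna, the nuclear lamin, was called in neither fit (log2 fold change 0.13, adjusted p = 0.732, edgeR).

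Transcription and splicing factors of epithelial cells showed 3 of 12 tested genes lower and 0 higher in edgeR without the block (6.69% and 5.00% of all genes), and 6 lower and 0 higher with it (19.1% and 15.1%). Klf5, a factor of epithelial progenitors, went from 21.8, 18.6 and 21.1 CPM in CTL to 10.5, 7.88 and 13.2 CPM in TGF-β1 cultures, a log2 fold change of -0.97 (SE 0.19, adjusted p = 0.0272, edgeR). Tfap2a changed by -1.49 (adjusted p = 0.0311) and Klf4 by -0.45 (adjusted p = 0.0499, edgeR), and with the block Grhl2, Grhl3 and Ehf fell as well. Grhl2, a regulator of epithelial junction genes, was at -0.35 (adjusted p = 0.739) without the block and -0.36 (adjusted p = 0.00268, edgeR) with it, with 0.0583 in the blocked fit without replicate 1. The epithelial splicing factors Esrp1 and Esrp2 and the factor Elf3 were called in neither fit. In edgeR without the block the adjusted p of Klf5, Tfap2a and Klf4 was 0.372, 0.284 and 0.405 without replicate 1, 0.0653, 0.1 and 0.0904 without replicate 3, 0.117, 0.105 and 0.145 without CTL 1, 0.0507, 0.0565 and 0.0914 without CTL 2, and 0.107, 0.0888 and 0.152 without TGF-β1 1. Klf5 also missed the threshold without CTL 3 (0.0698), Tfap2a without TGF-β1 2 or 3 (0.0654 and 0.074), and Klf4 without CTL 3, TGF-β1 2, TGF-β1 3 or replicate 2 (0.0614, 0.109, 0.0638 and 0.0685), whereas with the block all alternatives kept the 3 calls except that of Klf4 without replicate 1 (0.0707). Klf4 also missed the threshold without the block with at least 10 counts in every culture (0.0509, edgeR) and in limma-voom (0.0535), and held in 5 of 16 unblocked fits.

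Beside these counts, markers of other cells moved with the treatment as well. Over all genes tested, 5.00% were higher and 6.69% lower without the block, and 15.1% and 19.1% with it. Of the 9 epithelial surface markers, 2 fell without the block and 7 with it, among them in both fits Cdh16, a kidney cadherin (log2 fold change -1.50 without the block). Of the 4 mesothelial markers, 3 were tested and 2 fell without the block, Msln and Upk3b, and 3 with it, and the list summed to 63.5 to 133 CPM in CTL and 44.3 to 86.4 CPM in TGF-β1 cultures. Of the 7 proximal tubule markers, 4 were tested and 2 fell without the block and 3 with it, and the list summed to 77.6 to 93.6 CPM in CTL and 35.7 to 49.6 CPM in TGF-β1 cultures, with the transporters Slc34a1, Slc5a2 and Slc22a6 near 0. Of the 7 collecting duct markers, 3 were tested, and Hsd11b2 rose in both fits while Scnn1g and Gata3 fell with the block (log2 fold changes of -1.77 and -1.17), with a median log2 fold change of -1.14 over the 3 without the block and the water channel Aqp2 near 0. Of the 2 tested thick ascending limb and distal tubule markers, 0 were called without the block and 1 was lower with it. Of the 6 tested fibroblast markers, 0 were called without the block, and with it Col1a1 and Col1a2 were higher and Pdgfrb and Dcn lower. The podocyte list had 1 tested marker, not called without the block and lower with it, and the endothelial list, at 0.824 to 2.58 CPM, had 2 tested and 0 called in either fit. Of the 5 leukocyte markers, 4 were tested and 1 fell in both fits. The part of these lists in the keratin values was not tested.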

How the data were processed

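Poly(A) RNA from 3 CTL and 3 TGF-β1 RTEC cultures was sequenced with the Illumina TruSeq kit. Per the labels, the authors trimmed reads with Trim Galore, aligned them to mouse GRCm38 (mm10) with STAR 2.4.1d and counted them per gene with HTSeq 0.6.1, and the deposited values are raw read counts, 1 file per culture, in which no strand setting is stated. Records not assigned to a single gene (4.16% to 4.93% no feature, 1.88% to 1.97% ambiguous between genes, 18.7% to 19.4% not uniquely aligned) were left out. Of 46517 gene identifiers, 46005 matched GENCODE M21.

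Genes were filtered with filterByExpr and tested two-sided with edgeR 4.0.16 in R 4.3.3 (TMM, robust quasi-likelihood, Benjamini-Hochberg over all 15862 genes, threshold 0.05). CPM uses TMM library sizes. TPM uses the union of exons. Ratios and sums were compared by exact permutation. DESeq2 1.42.0 and limma 3.58.1 were alternatives. The primary test took the groups as unpaired, as the study's own tests did. Over all tested genes, deviations from the group mean had correlations of 0.34, 0.68 and 0.57 within the pairs sharing a number, against -0.62 to 0.22 for other pairs, so the numbers were taken to pair the cultures and a replicate block is reported beside it. Deviations from a group mean cancel within the group, so part of this contrast is built in. Replicates 1 and 3 were less clearly told apart: CTL 1 correlated at 0.34 with TGF-β1 1 and at 0.22 with TGF-β1 3. The Y-linked genes set apart replicate 2 only. No libraries were duplicates (chi-square per degree of freedom at least 9.02).

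All members were named. Other keratins were named from a mean of 1 CPM or when called, list genes when called, with Dsp, Plec, Vim, Lmna, Klf5 and Grhl2 always. Genes called with the block, Krt42, Esrp1, Esrp2, Elf3 and the cell type markers were named after their values were seen. The members and lists were chosen with earlier results of these data known. The ratio of Krt19 to Krt18, the blocked fits without 1 replicate number, with library size only and in limma were added after seeing the data. The limit of 3 reads covers counting error only. A called marker gene is not reported by name here.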

Additional observations from a re-analysis of the deposited data

How the results depend on the processing

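No keratin was called without the block under any normalisation, filter, tool or left-out culture, and in all 6 blocked fits 1 keratin (Krt19) was lower, with 4 higher in the one without replicate 3. With the replicate block, 2388 genes were higher and 3037 lower (2394 and 3045 in limma-voom, 1519 and 4048 with library size only, 1026 and 1649 without replicate 1, 2288 and 2718 without replicate 2, 2581 and 3254 without replicate 3). Without the block, 508 were higher with library size only and 1201 with DESeq2, and leaving out cultures gave 0 to 1084 higher and 0 to 1290 lower. Without both cultures of replicate 1, edgeR called 0 genes, with 1938 at an unadjusted p under 0.05.

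With the block the linkers had 3 genes lower in all alternatives and 4 or 5 higher (5 without replicate 2), the other intermediate filaments 3 higher and 2, 3 or 4 lower (2 and 4 without replicates 1 and 3), the epithelial factors 6 lower (7 with library size only or without replicate 3, 4 without replicate 1), and the epithelial surface markers 7 lower (5 without replicate 1, 6 lower and 1 higher without replicate 3). Leaving out cultures without the block gave 0 to 4 linkers higher and 0 to 1 lower, 0 to 1 intermediate filaments higher and 0 to 2 lower, 0 to 4 factors lower and 0 to 2 surface markers lower. DESeq2 had 1 other intermediate filament higher, and 1 surface marker was lower with no filter beyond 1 count.

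The cause of changed signs was not tested. With library size only, the median log2 fold change of all genes was -0.08, that of Krt8 was -0.010 and that of Krt10 -0.025 (-0.034 with the block). Krt20 was at 0.0055 in limma-voom and 0.0031 with the block without replicate 1, and Krt10 at -0.0846 with the block without replicate 3. The summed level differed by 17.1 in TMM-scaled CPM per kb. Leaving out cultures moved that sum between -822 and 761 TPM and the log2 ratio of Krt8 to Krt18 between -0.084 and 0.044. Log2 fold changes ranged from -0.46 to 0.23 for Krt5, -0.25 to 0.47 for Krt7, -0.34 to 0.63 for Krt8, -0.21 to 0.81 for Krt17, -0.26 to 0.59 for Krt18, -0.34 to 0.28 for Krt20, -0.40 to 0.15 for Krt80, -0.085 to 0.13 for Krt10, -1.30 to 0.018 for Krt42, -0.18 to 0.47 for Dsp, -0.12 to 0.64 for Vim, -0.079 to 0.29 for Lmna and -0.82 to 0.054 for Grhl2. Where 1 culture of a group was left out, the remaining cultures lent their spread to the fit. The depth limits Krt14, Krt23 and Krt5.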
